A study of Mus musculus with 8 samples.

Results

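The plasminogen activators, their cell surface receptor and serpins linked to them were examined in ID8 IP2 cells carrying a constitutively active Notch3. The members were chosen by name and comprised 6 of the 23284 mouse gene symbols counted: Plau, Plat, Plaur, Serpine2, Serpinb2 and Serpinf1. Of these, 4 had enough counts to pass edgeR's expression filter and were tested, and 2 (Serpine2 and Serpinb2) did not and are given as counts. ID8 IP2 is a mouse line derived from ovarian surface epithelium and passaged in mice as a model of ovarian cancer, and the study used it to ask what active Notch3 signaling changes. All cells compared here also carried a lentivirus for luciferase and mCherry. The Notch3IC lines were infected with a pCCL lentivirus for the intracellular part of Notch3 (codons 1664 to 2318) with an HA tag, together with GFP, and the Control lines with the empty pCCL vector. Each of 4 independent infections gave a matched Control and Notch3IC line (Sets 1 to 4), sequenced as 1 library each, so that there were 4 libraries per group. Cells were grown in DMEM with 10% FBS and 1% ITS supplement. Tests made after the experiments pointed, per the study's methods, to mycoplasma in the lines of both groups. Polyadenylated RNA was sequenced, and 19013578 to 28208072 reads per library were counted on genes in Control (median 24255880) and 15524262 to 27107061 in Notch3IC (median 24162245.5).

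Plasminogen is a circulating zymogen that is cleaved to the broad protease plasmin. Plau (urokinase, uPA) carries out this cleavage mainly at the cell surface, where Plaur (uPAR) holds it, and Plat (tissue plasminogen activator, tPA) does so most efficiently on fibrin. Both activators are inhibited by serpins, suicide substrates that trap the protease: Serpinb2 (PAI-2) acts on uPA and tPA, and Serpine2 (protease nexin-1) acts on thrombin as well as on the activators. Serpinf1 (pigment epithelium-derived factor, PEDF) has the serpin fold but is not known to inhibit proteases, and is best known as a secreted anti-angiogenic protein. In ovarian cancer the system is known for its part in degrading the matrix during peritoneal spread. Proteins and their activities were not measured here, and the values below describe mRNA.

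The labels were checked first on Notch3 and 3 targets of Notch signaling. Going from Set 1 to Set 4, Notch3 had 39, 34, 74 and 53 counts in Control and 3864, 319, 10026 and 6915 in Notch3IC, and all values below follow this order. The Notch3IC library of Set 2 held the lowest count of its group, although all 4 lay above every Control library. Hey1 and Nrarp were called higher in Notch3IC as well. Of the 100-base stretches of Nrarp, 74.8% are shared with transcripts of another annotated gene, so its reads are uncertain. Heyl was also called, but with 2, 0, 2 and 0 counts in Control it passed the filter through Notch3IC alone, and its call is only a description. Markers of the labelled tissue were present in part. Of 11 epithelial and ovarian surface markers, the keratins Krt8 and Krt18, Wt1 and Upk3b had at least 504 counts in every library, Epcam had at most 12 and Pax8 at most 3. Of the 8 markers tested, 7 had a negative log2 fold change, and Msln (mesothelin) was called lower, against 0.74% of all genes tested, with 1201, 1325, 3134 and 4572 counts in Control and 74, 532, 341 and 451 in Notch3IC (-2.60 on the log2 scale, adjusted p = 0.0625, edgeR quasi-likelihood test with Benjamini-Hochberg adjustment). This call did not hold throughout. The adjusted p of Msln reached 0.195 by edgeR with 1 library left out and 0.493 with 1 set left out. In the edgeR fit with the set as a block it reached 0.166 with 1 set left out. With the set as a block Krt19 (-2.10 on the log2 scale, adjusted p = 0.0288 by edgeR) and Upk3b (-1.98, adjusted p = 0.0319) were called lower as well, against 2.53% of all genes tested in that fit, as they were by DESeq2. The epithelial list summed to 932, 1711, 2715 and 2641 CPM (counts scaled to a common sequencing depth) in Control and 311, 1104, 1040 and 796 in Notch3IC. Upk3b or Wt1 was the most abundant gene of this sum in every library, with Upk3b at 1363 CPM in Control of Set 3. With condition only, Upk3b (adjusted p = 0.220 by edgeR), Wt1 (0.283), Krt18 (0.660) and Cdh1 (0.764) were not called, so the sum does not show a fall across the list. In bulk RNA, fewer cells of a type and less RNA per cell cannot be told apart. The part of this shift in the results below was not tested.

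In Control cells the members spanned a wide range of mRNA levels. Levels of different genes are compared per length, as CPM divided by the exon length in kilobases, since long transcripts collect more reads. The order in Control was Serpinf1 (43.5 ± 20.2, SD, n = 4), Plaur (21.4 ± 6.15), Plat (3.10 ± 1.76), Plau (2.99 ± 1.14), Serpinb2 (0.132 ± 0.103) and Serpine2 (0.0278 ± 0.0556). The ranges of Serpinf1 and Plaur overlapped, as did those of Plat and Plau and those of Serpinb2 and Serpine2. Plaur lay above Plat, and Plau above Serpinb2, in every Control library. The receptor was therefore more abundant per length than either activator, and both activators were above Serpinb2 and Serpine2. In Notch3IC the order was Serpinf1 (141 ± 58.5), Plaur (19.3 ± 4.60), Plat (6.69 ± 1.15), Plau (5.10 ± 1.57), Serpine2 (0.0281 ± 0.0471) and Serpinb2 (0.0265 ± 0.0181). Serpinf1 lay above Plaur in all 4 of these libraries, while Plat again overlapped with Plau and Serpine2 with Serpinb2.

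**Figure D1:**
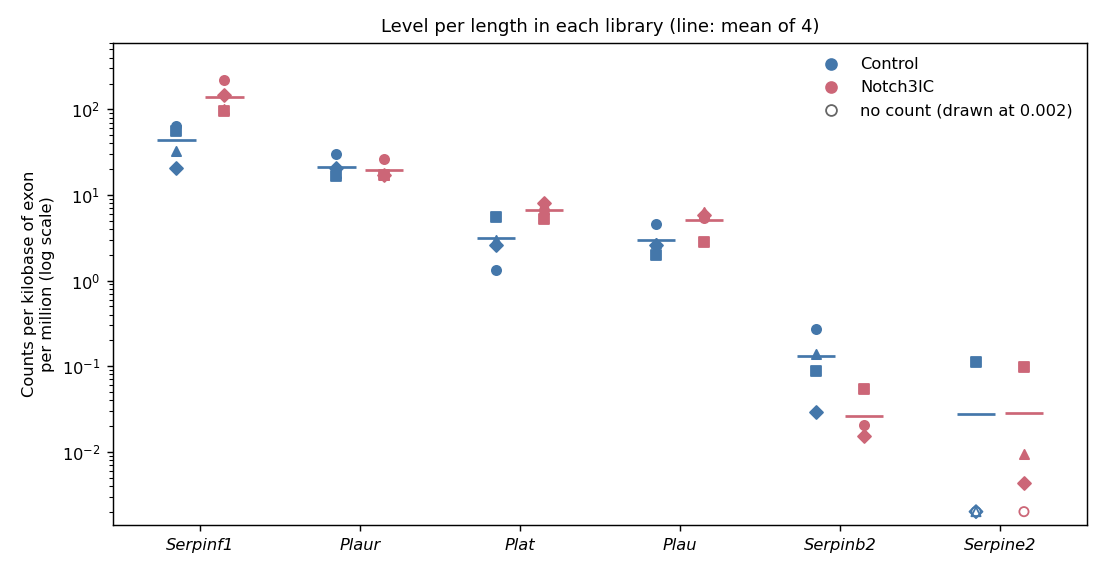
Level per length (CPM divided by the exon length in kilobases, log axis) of the 6 members in each of the 8 libraries, with Control and Notch3IC side by side, 1 point per library, a marker shape for each set and a line at the mean of 4 libraries. Plaur sat above Plat and Plau in every library, and Serpinb2 and Serpine2 stayed far below the other genes, with values of 0 drawn as open markers at the bottom of the axis.

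The activators were considered next. Plau, on chromosome 14 (GRCm38, 20836660 to 20843385, plus strand), had 258, 92, 159 and 180 counts in Control and 267, 106, 377 and 386 in Notch3IC. Scaled to a common library size, these were 256, 109.8, 152 and 143 normalized counts in Control and 299, 155, 347 and 326 in Notch3IC. The Notch3IC library of each set lay above its own Control, but the Control library of Set 1 exceeded the Notch3IC library of Set 2, so the groups overlapped. The log2 fold change was 0.77 (standard error 0.32), and Plau was not called (adjusted p = 0.248, edgeR quasi-likelihood test with Benjamini-Hochberg adjustment over 12430 genes, where a call needed an adjusted p below 0.1 and a log2 value at or beyond 1 in either direction). Without the Control library of Set 1 it was called (log2 fold change 1.06, adjusted p = 0.0952 by edgeR). Within sets, the log2 ratio of Notch3IC to Control was 0.22 in Set 1 (95% interval -0.03 to 0.48, counting error only), 0.50 in Set 2 (0.08 to 0.92), 1.19 in Set 3 (0.92 to 1.46) and 1.19 in Set 4 (0.93 to 1.46). Plau was thus higher in 4 of 4 sets, where 21.0% of all genes tested were, and the ratios of Sets 3 and 4 lay above the upper ends of the intervals in Sets 1 and 2. These intervals leave out the spread between lines, so they cannot show that the sets differ.

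Plat, on chromosome 8 (22757727 to 22782844, plus strand), differed more between sets. It had 194, 673, 457 and 473 counts in Control and 870, 517, 1095 and 1376 in Notch3IC. After scaling, Control had 192, 803, 437 and 375 normalized counts and Notch3IC 973, 758, 1007 and 1162. Here 3 of the 4 sets were higher in Notch3IC, and the Control library of Set 2, the highest of its group, lay just above the Notch3IC library of the same set, the lowest of its group. The log2 fold change was 1.11 (standard error 0.37), a fold of 2.16, and Plat was not called with condition as the only term (adjusted p = 0.156, edgeR with Benjamini-Hochberg adjustment). With the set as a block it was called higher (log2 fold change 1.27, adjusted p = 0.0822 by edgeR), as it was by DESeq2 (1.09, adjusted p = 0.0423). It was also called on leaving out Control of Set 2 (1.54, adjusted p = 0.0485 by edgeR). The ratio within sets was 2.34 on the log2 scale in Set 1 (95% counting interval 2.11 to 2.57), 1.20 in Set 3 (1.04 to 1.36) and 1.63 in Set 4 (1.48 to 1.79), against -0.08 in Set 2 (-0.25 to 0.08). This pattern of a higher value in Sets 1, 3 and 4 and a lower one in Set 2 was found in 11.4% of all genes tested.

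The balance between the activators also varied. Per length, the level of Plat divided by that of Plau was 0.285, 2.77, 1.09 and 0.997 in the Control lines. Plau was thus the more abundant activator in the Control line of Set 1 and Plat in that of Set 2, while the ratio was near 1 in the Control lines of Sets 3 and 4. It depended on the length used, and on the longest transcript it was 0.436, 4.24, 1.67 and 1.52 in Control. In the Notch3IC libraries the ratio was 1.24, 1.85, 1.10 and 1.35, so that Plat was at least as abundant as Plau in all 4. The spread of this ratio over the 4 Control lines was larger than that over the 4 Notch3IC lines, and no test was made of it.

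Plaur, the urokinase receptor on chromosome 7 (24462484 to 24475968, plus strand), was the tested member with the smallest difference. It had counts of 1865, 847, 1157 and 1599 in Control and 1430, 703, 1141 and 1225 in Notch3IC, or 1849, 1011, 1107 and 1268 normalized counts against 1599, 1030.1, 1049 and 1035. The Set 1 library was the highest of each group, and the other 6 libraries lay between 1011 and 1268. The difference was -0.15 ± 0.22 (standard error) on the log2 scale (adjusted p = 0.784 by edgeR). On leaving out Control of Set 1 it was 0.06. The log2 ratios within sets were -0.21, 0.03, -0.08 and -0.29 in Sets 1 to 4, and the counting intervals of Sets 1 and 4 excluded 0 while those of Sets 2 and 3 did not. The level of Plaur per length relative to that of its ligand Plau was 6.54, 8.33, 6.58 and 8.03 in Control and 4.84, 5.999, 2.74 and 2.87 in Notch3IC. All 4 Notch3IC libraries therefore held less receptor mRNA per activator mRNA than any Control library, a ratio chosen after the values were seen and not tested.

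**Figure D2:**
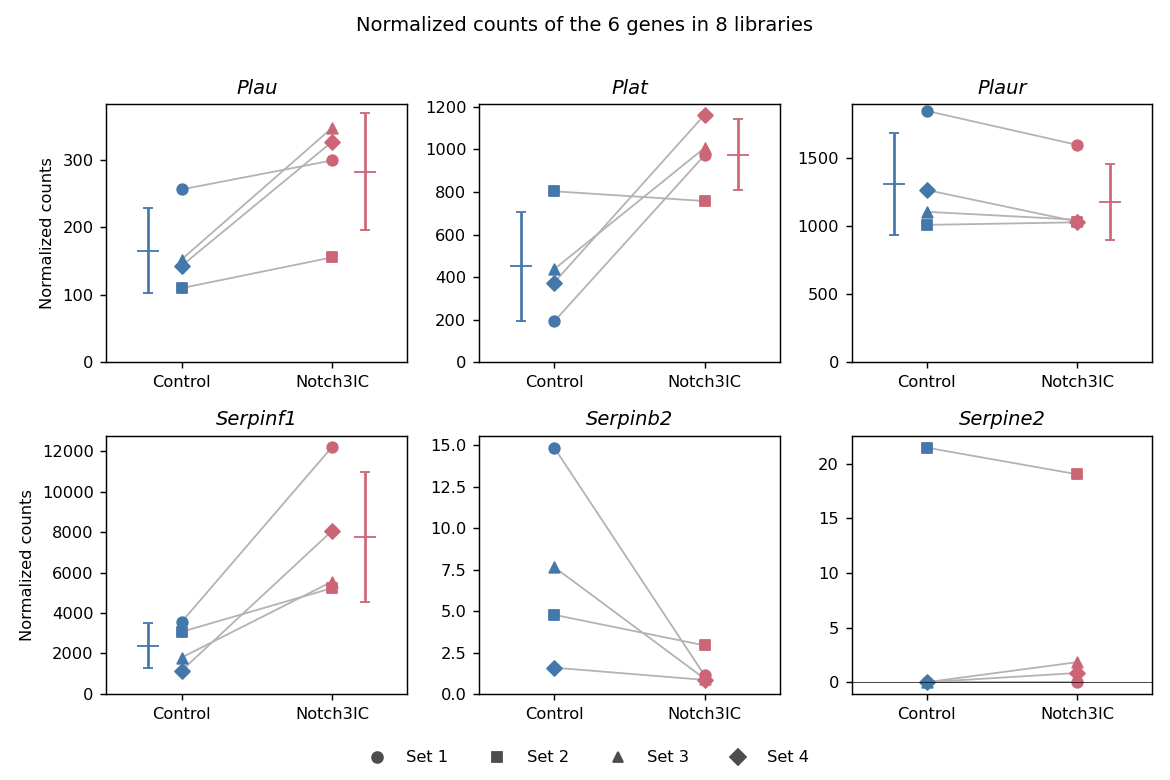
Normalized counts (linear axis from 0, 1 panel per gene) of the 6 members in each library, with Control and Notch3IC side by side, a marker shape for each set, lines joining the 2 libraries of a set, and bars for the mean ± SD of 4 libraries in the 4 members tested. Serpinf1 was the member whose Notch3IC libraries, from 5229.6 to 12206, all lay above its Control libraries, while the line of Set 2 ran opposite to the others for Plat.

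Serpinf1 was the member called. It lies on chromosome 11 (75409769 to 75422701, minus strand) and shares no exon bases with another annotated gene and no 100-base stretch with the transcripts of another gene. Control held 3583, 2572, 1878 and 1448 counts of it and Notch3IC 10914, 3569, 6037 and 9540. After scaling, Control had 3553, 3070.3, 1798 and 1148 normalized counts and Notch3IC 12206, 5229.6, 5552 and 8059.5. Every Notch3IC library lay above every Control library, with the highest Control value, in Set 1, still below the lowest Notch3IC value, in Set 2. Serpinf1 rose from 2392 ± 1112 to 7762 ± 3222 normalized counts (SD, n = 4 libraries per group), a fold of 3.25, or 1.70 ± 0.40 (standard error) on the log2 scale, at an adjusted p of 0.0604 (edgeR with Benjamini-Hochberg adjustment). Of the 4 members tested, 1 was called higher and 0 lower, against 3.4% of all genes tested called higher and 0.74% called lower (4.14% in either direction). Plaur, Plau and Plat had unadjusted p-values of 0.515, 0.0420 and 0.0164 in the same edgeR fit, where 18.4% of all genes tested had an unadjusted p under 0.05. Genes whose groups did not overlap with Notch3IC higher made up 7.08% of all genes tested, and those with Notch3IC lower 3.75%.

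The rise of Serpinf1 was seen in each set but differed in size. The log2 ratio was 1.78 in Set 1 (95% counting interval 1.73 to 1.84), 0.77 in Set 2 (0.69 to 0.84), 1.63 in Set 3 (1.55 to 1.70) and 2.81 in Set 4 (2.73 to 2.89). These intervals did not overlap with each other, but they leave out the spread between lines, and each set had 1 library per condition. Set 2 had the smallest ratio. Set 4 had the largest ratio together with the lowest Control value. The call depended on single libraries. Leaving out Control of Set 3 gave a log2 fold change of 1.58 (adjusted p = 0.176 by edgeR), and leaving out Control of Set 4 gave 1.47 (0.144). Leaving out Notch3IC of Set 1, 3 or 4 gave 1.40, 1.83 and 1.68 (0.105, 0.113 and 0.163). With the set as a block Serpinf1 was called (log2 fold change 1.74, adjusted p = 0.0344 by edgeR). With 1 set left out its adjusted p by edgeR reached 0.381 with condition only and 0.156 with the block.

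**Figure D3:**
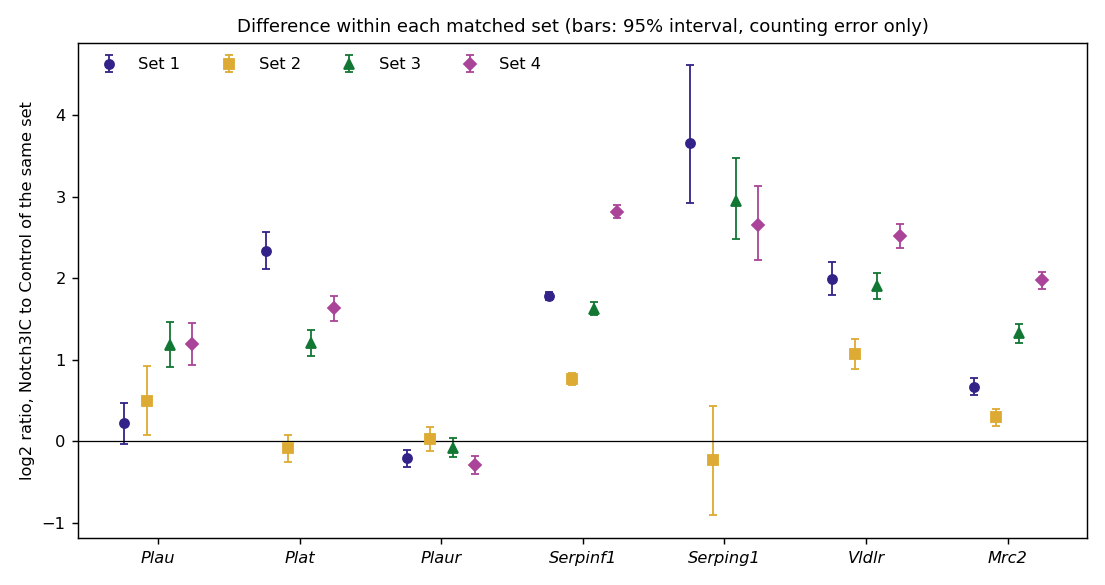
Log2 ratio of Notch3IC to Control normalized counts (vertical axis) within each of Sets 1 to 4, marked by shape and colour, for the 4 members tested and 3 further genes of the plasminogen system (horizontal axis), with bars for the 95% interval from counting error alone. Serpinf1 was above 0 in all 4 sets, Plat was above 0 in Sets 1, 3 and 4 and near 0 in Set 2, and Plaur stayed close to 0.

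The inhibitors among the members were scarce. Serpinb2 (chromosome 1, 107511423 to 107535478, plus strand) had 15, 4, 8 and 2 counts in Control and 1, 2, 1 and 1 in Notch3IC, and 12.4% of its exon bases lie over Serpinb10 on the same strand, so its few reads are uncertain. Each set had fewer counts in Notch3IC than in Control, but the Control library of Set 4 and the Notch3IC library of Set 2 held equal raw counts and the normalized values overlapped. Summed over the libraries there were 29 counts in Control and 5 in Notch3IC, a depth-corrected ratio of 0.186 (95% interval 0.0562 to 0.486, counting error only). The difference of the normalized means (7.22 ± 5.67 against 1.45 ± 0.992, SD, n = 4) gave a two-sided p = 0.0571 in an exact permutation test, whose smallest possible value with 4 against 4 libraries is 0.0286. On leaving out single libraries the exact permutation p ranged from 0.0286 (Control of Set 4) to 0.143 (Notch3IC of Set 1, 3 or 4). Serpine2, on the same chromosome (79794197 to 79861180, minus strand), had 0, 18, 0 and 0 counts in Control and 0, 13, 2 and 1 in Notch3IC. Its reads came almost wholly from Set 2, in both lines, and a difference between the groups was not detectable at this depth (ratio of sums 0.959, 95% counting interval 0.458 to 1.99, exact permutation p = 1).

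Promoter sequences were taken from RefSeq (GRCm38.p6, 250 bases before to 50 bases after the start), which gave entries for 4 of the 6 members (Plaur, Serpinb2, Serpine2 and Serpinf1). The promoter of Serpinf1 is shown as that of the member called higher, and those of Plaur and Serpinb2 because they hold a match to an AP-1 motif. AP-1 factors are well known regulators of the urokinase system. The letters searched on both strands were TGANTCA for AP-1, GTGGGAA for Rbpj, the DNA-binding partner of the Notch intracellular domain, and CACGTG, an E-box bound by Hey factors and others. Matches to AP-1 are in capitals. Coordinates are chr11:75422574-75422873 on the minus strand for Serpinf1, chr7:24462233-24462532 on the plus strand for Plaur and chr1:107511173-107511472 on the plus strand for the first of 2 starts of Serpinb2.
Serpinf1: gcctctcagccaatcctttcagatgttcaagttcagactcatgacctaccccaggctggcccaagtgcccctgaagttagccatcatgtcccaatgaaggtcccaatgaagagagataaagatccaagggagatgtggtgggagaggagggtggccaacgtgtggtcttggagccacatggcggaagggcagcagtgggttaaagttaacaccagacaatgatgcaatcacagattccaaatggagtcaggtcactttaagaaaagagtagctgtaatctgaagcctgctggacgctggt
Plaur: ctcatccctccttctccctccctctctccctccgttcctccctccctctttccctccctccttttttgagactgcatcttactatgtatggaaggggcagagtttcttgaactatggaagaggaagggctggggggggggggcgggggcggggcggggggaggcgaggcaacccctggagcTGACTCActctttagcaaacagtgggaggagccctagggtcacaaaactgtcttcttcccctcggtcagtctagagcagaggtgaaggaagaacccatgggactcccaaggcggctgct
Serpinb2: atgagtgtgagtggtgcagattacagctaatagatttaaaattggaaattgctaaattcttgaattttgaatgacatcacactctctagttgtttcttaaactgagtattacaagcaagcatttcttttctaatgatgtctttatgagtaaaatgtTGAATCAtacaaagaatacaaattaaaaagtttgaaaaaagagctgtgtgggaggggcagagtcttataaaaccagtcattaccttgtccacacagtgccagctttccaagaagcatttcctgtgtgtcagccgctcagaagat
Counted from the start of transcription, the AP-1 match began at -69 in Plaur and at -94 in Serpinb2. TGANTCA was found in 7.79% of all 32544 promoters in the table, GTGGGAA in 6.39% and CACGTG in 7.17%. Neither GTGGGAA nor CACGTG was found in the promoters of Serpinf1, Plaur, Serpinb2 or Serpine2. The promoter of Serpinf1 held none of the 3 motifs. A match of letters is a description of the sequence and not a measurement of binding.

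The rest of the plasminogen system was described from a list of 27 further genes, of which 14 were tested. Among them 2 were called higher and 0 lower, against 3.4% and 0.74% of all genes tested, 9 had a positive and 5 a negative log2 fold change, and the median was 0.15, against -0.01 over all genes tested. Of the substrate side, Plg itself, the gene for plasminogen, had 0 counts in both lines of Sets 1 and 2, 6 and 6 in Set 3, and 13 and 16 in Set 4 (Control and Notch3IC). Of the genes that help bind plasminogen to cells, Eno1 (enolase 1) was too low for the filter under this symbol, with 11, 9, 0 and 2 counts in Control and 10, 4, 1 and 0 in Notch3IC, and the other 3 had reads in every library and were not called. Anxa2 (annexin A2) had 19137 ± 1009 normalized counts in Control and 17919.5 ± 3208 in Notch3IC (SD, n = 4, -0.09 on the log2 scale, adjusted p = 0.785 by edgeR), and its partner S100a10 (p11) had 8431 ± 421 and 8009.5 ± 1591 (-0.07, adjusted p = 0.852 by edgeR). The plasminogen receptor Plgrkt had 1158 ± 132 and 1176 ± 216 (0.02, adjusted p = 0.964 by edgeR), and the signs of the differences in S100a10 and Plgrkt turned when single libraries or sets were left out. That of Anxa2 turned in Sets 1 and 2 alone.

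The 2 called genes of the list act on the inhibitor and uptake side. Vldlr, an endocytic receptor that takes up complexes of activators with their inhibitors, had 269.7, 459.6, 391 and 346 normalized counts in Control and 1075, 967, 1463 and 1985 in Notch3IC. The groups did not overlap, the ratio was above 1 in all 4 sets, and Vldlr rose by 1.91 ± 0.26 (standard error) on the log2 scale (adjusted p = 0.0169 by edgeR). This call held with any 1 library left out (adjusted p from 0.00311 to 0.0854 by edgeR), but not without both libraries of Set 3 (0.224) or of Set 4 (0.221). Serping1, the C1 inhibitor, which acts on complement and contact proteases and also on plasmin, had 13.9, 58.5, 38.3 and 38.1 normalized counts in Control and 181, 49.8, 298 and 241 in Notch3IC. It rose by 2.38 ± 0.58 (standard error) on the log2 scale (adjusted p = 0.0638 by edgeR), with Set 2 again apart, where the log2 ratio was -0.23 against 3.66, 2.94 and 2.65 in Sets 1, 3 and 4. Its call was lost on leaving out Control of Set 3 (adjusted p = 0.175 by edgeR) or Set 4 (0.191), or Notch3IC of Set 1 (0.108), Set 3 (0.172) or Set 4 (0.185).

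The other uptake receptors were not called. Mrc2 (Endo180, a collagen receptor known to associate with uPAR) had 1183, 1815, 770.5 and 773 normalized counts in Control and 1885, 2226, 1930.2 and 3036 in Notch3IC. Its groups did not overlap, and they differed by 1.00 ± 0.30 (standard error) on the log2 scale (adjusted p = 0.114 by edgeR). With the set as a block it was called (1.06, adjusted p = 0.0625 by edgeR), and it was also called on leaving out Control of Set 2 (1.32, adjusted p = 0.0418 by edgeR). The block call was lost on leaving out some sets, with an adjusted p of up to 0.251 by edgeR. With condition only, the adjusted p of Mrc2 reached 0.297 by edgeR with 1 library left out. Lrp1, the main clearance receptor for activator and inhibitor complexes had 20200.2 ± 3389 normalized counts in Control and 25909.7 ± 6781 in Notch3IC (0.36, adjusted p = 0.416 by edgeR). Hgf, a growth factor precursor related in fold to plasminogen and cleaved by similar proteases, was too low for the filter, with 0, 1, 0 and 1 counts in Control and 4, 3, 23 and 94 in Notch3IC. The 4 Notch3IC libraries lay above all Control libraries, with most reads in Set 4 (exact permutation p = 0.0286, the smallest value possible, unadjusted and among 15 genes of the members and the list below the filter). DESeq2, run without that filter, also called Hgf higher (adjusted p = 0.00141), which is given as a description since Control held almost no reads.

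**Figure D4:**
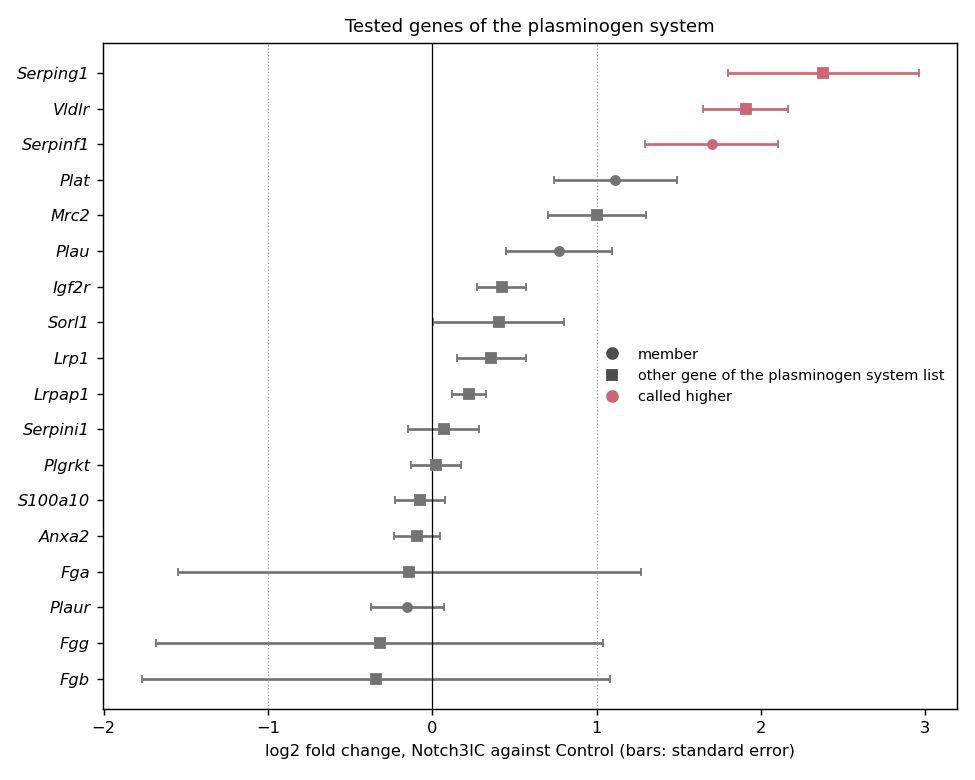
Log2 fold change of Notch3IC against Control (horizontal axis, bars for 1 standard error of the edgeR fit) for the members and the genes of the plasminogen list that were tested (circles and squares), with called genes in red and dotted lines at the fold limit of 1. Vldlr, Serping1 and Serpinf1 were the called genes, Plat and Mrc2 lay at or above 1 without a call, and the fibrinogen genes Fga, Fgb and Fgg had the widest errors.

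Some genes of the list are best known from liver, and the reads of fibrinogen and vitronectin genes followed the set and not the condition. Those of Serpinf2 did not follow the set, with 0, 3, 4 and 5 counts in Control and 6, 0, 7 and 4 in Notch3IC. Fga, Fgb and Fgg (the chains of fibrinogen) had 0 counts in all 4 libraries of Sets 1 and 2, and between 18 and 70 in those of Sets 3 and 4. Vtn (vitronectin, a matrix protein that binds uPAR) had no reads in Sets 1 and 2, and in Sets 3 and 4 it had 8 and 26 counts in Control and 13 and 18 in Notch3IC. A list of 10 liver genes, added after these values were seen, summed in Sets 3 and 4 to 565 and 1338 counts in Control and 547 and 913 in Notch3IC, against 17 to 44 in Sets 1 and 2. Its most abundant gene there was Alb, with 351 and 804 counts in Control and 329 and 543 in Notch3IC, and 0 in both Control libraries of Sets 1 and 2. Ahsg of this list also had reads in Set 2, with 34 counts in Control and 22 in Notch3IC. Sets 3 and 4 therefore differed from Sets 1 and 2 in reads of liver genes in both conditions, and its part in the results was not tested. Other cell types that use the members left few reads. Of the leukocyte list, Cd3e and Emr1 were at 0 in all 8 libraries, Ptprc was at 0 in each Control library, and the summed level was 2.59 to 5.58 CPM, led by Cd68 or Csf1r. Csf1r had 8.67 ± 2.38 normalized counts in Control and 24.7 ± 11.0 in Notch3IC (SD, n = 4). It was called higher, but it passed the filter through its Notch3IC libraries, and it shares 13.5% of its 100-base stretches with another gene, so this is given as a description. Of the endothelial list, Cdh5 and Emcn had few or 0 counts, the most abundant gene was Pecam1 or Kdr, and the sum was at most 2.21 CPM. Cd3e, Emr1, Ptprc, Cdh5 and Emcn were thus at or near 0, while Cd68, Csf1r, Fcer1g, Pecam1 and Kdr had reads in every library. The leukocyte markers did not share a direction. Cd68 had 48, 64, 84 and 150 counts in Control and 31, 43, 65 and 103 in Notch3IC. Lyz2 had 0, 3, 2 and 1 in Control and 2, 3, 7 and 11 in Notch3IC, and Fcer1g 4, 5, 3 and 1 against 3, 5, 6 and 10.

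The serpin family was described from 62 symbols, of which 19 had 0 counts in every library and 33 had at most 3 in any. Of the 12 tested, 3 were called higher (Serpinf1, Serping1 and Serpina3g) and 0 lower, against 3.4% and 0.74% of all genes tested, with a median log2 fold change of 0.24. Serpina3g, a mouse serpin of the antichymotrypsin cluster, had 0, 0, 1 and 0 counts in Control and 14, 12, 16 and 18 in Notch3IC, at least 5.35-fold higher with Control set to a floor of 3 counts per library. It passed the filter through its Notch3IC libraries alone, so its call is given as a description. The 3 calls and the median above include Serpina3g and are likewise only a description. It shares 3.49% of its 100-base stretches with neighbouring Serpina3 genes, so part of its reads is uncertain. Serpinb9, an inhibitor of granzyme B, had groups that did not overlap (881 ± 118 and 1329.7 ± 72.0 normalized counts, SD, n = 4), with a log2 difference of 0.59 ± 0.11 (standard error; adjusted p = 0.0298 by edgeR), under the fold limit. Serpinb8 was called with the set as a block (1.28, adjusted p = 0.0861 by edgeR). It was not called with condition only (1.12, adjusted p = 0.290 by edgeR) or by DESeq2 (1.10, adjusted p = 0.184). Its groups overlapped, and Set 2 ran the other way, with 114.6 normalized counts in Control and 107.0 in Notch3IC. Per length, the most abundant of these serpins in Control was Serpinh1, the collagen chaperone Hsp47, at 767 ± 128 (SD, n = 4). Serpinf1, at the level given above, Serpinb6a (33.7 ± 3.33) and Serpinb6b (31.6 ± 4.02) followed with ranges that overlapped, and on the longest transcript Serpinb6a (83.3) was above Serpinf1 (56.0). Serpinb6a shares 19.9% of its 100-base stretches with other genes, so its level is uncertain. Serpinh1 itself differed by a log2 fold change of 0.08 (adjusted p = 0.864 by edgeR). With the set as a block, 2 members, 3 genes of the list and 4 serpins were called higher, against 5.19% of all genes tested called higher and 2.53% called lower in that fit.

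The genes whose pattern over the 8 libraries was most like that of each tested member were found by the root mean square difference of centred log2 CPM, among 10368 genes. For Serpinf1 they were Dennd2a (0.163), Bgn (0.217), which encodes the matrix proteoglycan biglycan, and Fbn1 (0.269), which encodes fibrillin-1. Serpinf1 itself varied by 1.04 about its own mean on that scale. For Plau they were Hoxc8 (0.141) and Prr5 (0.201), and for Plat Trps1 (0.216), Pik3ip1 (0.283) and Synpo (0.295), with spreads of 0.595 and 0.835 for the members themselves. Plaur, which varied least (0.310), was most like Ddx20 (0.0374), Ola1 (0.0607) and Eif4e (0.0628). No gene was named for more than 1 member.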

How the data were processed

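RNA-sequencing of 4 Control and 4 Notch3IC lines was examined. According to the study's methods and processing notes, reads were aligned with TopHat (mm9), counted with Cufflinks and compared with DESeq. Strandedness and annotation are not given in the sources used here. The authors deposited whole-number counts of reads per gene symbol, without normalization, 1 table per library. The members and gene lists were chosen with earlier results of these data known.

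Counts were fitted with edgeR 4.0.16 in R 4.3.3 (TMM, filterByExpr by condition, robust quasi-likelihood F test, condition only), with Benjamini-Hochberg adjustment over 12430 genes. A call required an adjusted p below 0.1 and a log2 value at or beyond 1 in either direction, as in the study. Standard errors are the log2 fold change divided by the square root of F. Normalized counts were scaled to the mean library size of 23336153. The biological coefficient of variation was 26.3%, and 14.1% with the set as a block. Each set is a matched pair by design, and deviations from the group means correlated at 0.79, 0.41, 0.57 and 0.43 within Sets 1 to 4, against -0.51 to 0.40 for crossed pairs. As the methods name no set term, the block is an alternative. Nothing in the labels separates cultures within a line. The p-values of the condition-only fit therefore measure the spread between the 4 lines of a group, including set differences that matched lines share. They do not measure how the difference itself varied between infections.

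Ratios within a set used a pseudocount of 0.5 and exact 95% intervals, which cover counting error only. Levels per length used merged exons of GENCODE M21 on GRCm38, matched by symbol, since no annotation of the files' build was used here. Genes below the filter were given exact two-sided permutation tests (70 splits). These splits did not keep the matched pairs of the sets, so the permutation p-values ignore the pairing. No gene set was tested. The rule for named genes took the members, Notch3, Hey1, Heyl and Nrarp, the plasminogen list, called and most abundant serpins, and the 3 genes most alike in pattern (at least 100 counts on average, prior count 0.5). Values are given for the called genes of the plasminogen list and for some others of it. Another 2 genes that the rule picked were left out of the lists and are not reported here. Serpinb9, Serpinb8 and the marker genes given values were picked knowing those values. Marker lists were epithelial, leukocyte, endothelial and, added later, liver. Alternatives were DESeq2 1.42.0, RLE, upper-quartile and total-count scaling, other filters and thresholds, the longest transcript, the block, and leaving out libraries or sets. The test was tried on simulated counts with known changes before use. Python 3.11.15, SciPy 1.17.1 and Matplotlib 3.10.9 were used for the rest.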

Additional observations from a re-analysis of the deposited data

Results flagged for a closer look

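In 5 of 28 groups of 4 libraries searched, 1 library stood far from the other 3 by Dixon's gap criterion at the 95% level, which chance alone meets in about 1 in 20 groups (1.4 of 28). Plaur was at 1599 normalized counts in the Notch3IC library of Set 1, against 1030.1 to 1049 in the others. Serpine2 was at 21.5 normalized counts in the Control library of Set 2, with 0 in the other 3 (a pattern that meets the criterion at any value above 0, so that the chance rate does not apply), and at 19.0 in the Notch3IC library of Set 2, with the others between 0 and 1.84. Serpinb2 was at 2.93 in the Notch3IC library of Set 2, from 2 reads, with the others at 0.845 to 1.12. Notch3 was at 70.8 in the Control library of Set 3, against 38.7 to 42.0 in the others. For Serpine2 the library set apart belonged to the same set in both conditions, and the cause was not tested.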

How the results depend on the processing

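The log2 fold change of Serpinf1 was positive under every alternative run (1.40 to 2.21), but its call did not hold throughout. It was lost at an adjusted p below 0.05 (1.70), in Sets 1 and 2 alone (1.40) and in the block fit without Set 1 (1.73), Set 3 (1.79) or Set 4 (1.40). The call was also lost without single libraries, as given above. With condition only and 1 set left out, its adjusted p reached 0.381 by edgeR, and without Set 4 no gene at all was called. With 1 library or set left out its log2 fold change ranged from 1.40 to 1.99. Plat was positive throughout and was called by DESeq2 (1.09), with the replicate block (1.27), with the block without Set 2 (1.70) and in Sets 3 and 4 alone (1.41). With condition only it was called without Control of Set 2 (1.54) and without both libraries of Set 2 (1.64). It ranged from 0.86 to 1.64 with 1 library or set left out. With 1 set left out its adjusted p ranged from 0.0253 to 0.731 by edgeR with condition only. Plau was called in Sets 3 and 4 alone (1.18), with a range of 0.62 to 1.06 on leaving out libraries or sets. Plaur ranged from -0.33 to 0.060 (the latter without Control of Set 1). Without Set 3 or without Set 4, Vldlr, Serping1 and Serpina3g were not called either. The subsets of Sets 1 and 2 and of Sets 3 and 4 were chosen after seeing the data.

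Of all genes, 423 were called higher and 92 lower. These counts were 708 and 192 with DESeq2, 645 and 315 with the block, 0 and 0 in Sets 1 and 2 alone (304 with an unadjusted edgeR p under 0.05) and 1041 and 521 in Sets 3 and 4 alone. Fewer were called lower at an adjusted p below 0.05 (48) and more without a fold limit (210). Leaving out 1 library or set gave 0 to 702 higher and 0 to 305 lower, with the lowest values without Set 4 (0 and 0, with 1011 at an unadjusted edgeR p under 0.05). In the block fit these counts were 46 and 23 without Set 1, 904 and 426 without Set 2, 59 and 22 without Set 3, and 129 and 30 without Set 4.

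Members called higher numbered 2 with DESeq2, against 708 of all 17359 genes fitted, and 2 with the block, against 645 of 12430. They numbered 3 in Sets 3 and 4 alone (1041 of all 12710 genes) and 0 in Sets 1 and 2 alone (0 of 12334). At an adjusted p below 0.05 they were 0 (290 of all 12430 genes). With 1 library or set left out they were 0 to 2 (0 to 702 of all genes). In the block fit they were 2 without Set 2 (904 of all 12492 genes) and 0 without Set 1 (46 of 12488), Set 3 (59 of 12418) or Set 4 (129 of 12378). The counts for the list and the serpins below stand beside the same counts over all genes. For the plasminogen list the counts were 4 in Sets 3 and 4 alone, 0 in Sets 1 and 2 alone, 1 at an adjusted p below 0.05, and 0 to 3 with 1 library or set left out, with 0, 0 and 1 in the block fit without Set 1, 3 or 4. For the serpins they were 0 in Sets 1 and 2 alone, 1 at an adjusted p below 0.05, 0 to 3 with 1 library or set left out, and 0, 0 and 1 in the block fit without Set 1, 3 or 4. The serpin called at an adjusted p below 0.05 was Serpina3g, whose call is only a description.

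The Serpine2 difference of normalized means turned from 0.0612 to between -4.48 and -1.73 without the Notch3IC library of Set 2 or a Control library of Sets 1, 3 or 4, and was 5.43 without the Control library of Set 2. That of Serpinb2 ranged from -7.65 to -3.22. Serpinf1 in Set 1 was 1.72 with library totals. On the longest transcript, the level per length of Plaur was 27.9 in Control and 25.1 in Notch3IC, and that of Plat 10.3 in Notch3IC. Signs also turned for Plgrkt (-0.0064 with library totals, -0.0027 in Sets 1 and 2, -0.026 and -0.017 in the block fit without Sets 2 and 3, -0.058 to 0.14 on leaving out libraries), Anxa2 (0.059 in Sets 1 and 2) and S100a10 (0.053 in Sets 3 and 4, 0.081 in the block fit without Set 1, -0.15 to 0.080 on leaving out libraries or sets). The causes of these changes were not tested. Counts limit what can be said of Serpinb2 and Serpine2, which had at most 18 reads in a library.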
